A study of Mus musculus with 8 samples.

Results

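Kupffer cells, the resident macrophages of the liver sinusoids, are usually recognised by a small set of transcripts. The 10 genes described here were chosen by name as such transcripts, out of 46517 genes in the count table: Clec4f, Vsig4, Timd4, Cd5l, Folr2, Cd163 and Adgre1, whose products are displayed on the cell surface or secreted, and Nr1h3, Spic and Id3, which encode regulators of transcription. The study isolated cells of adult mouse livers, sorted them singly into 384-well plates and sequenced full-length cDNA with Smart-seq2, a plate method without molecular identifiers. The 3491 deposited cells form 8 samples, a male and a female pool for each of 4 classes: mesenchymal (998 and 339 cells, male then female), endothelial (655 and 451), immune (255 and 396) and epithelial (358 and 39). Mice were C57BL6/J or carried heterozygous fluorescent reporter transgenes under Pdgfrb, Pdgfra, Cspg4, Acta2 or Cldn5 control, alone or combined, and were between 8 weeks and 1 year old. No animal was treated, livers were not perfused, macrophages were enriched with an antibody against CD68, and no label ties a cell to a mouse. Some plate names hold Acta2, Rb or EC, but no label says whether these mark a strain or a sort.

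The classes and clusters are the authors' own. A multilevel setting split the 651 immune cells into 7 clusters (#i1 to #i7) and a community setting into 11 (#i1c to #i11c). The study named #i1, #i3, #i4, #i6 and #i7 Kupffer cells from Clec4f, Folr2 and Vsig4, #i5 B cells, and #i2 monocytic cells, which the community setting parted into monocyte-derived macrophages (#i2c), dendritic cells (#i7c) and a further Kupffer cell group (#i4c). All of these clusters were made from the transcriptomes that are described here, so levels in the Kupffer cell clusters against other immune clusters are given as a description with no test. Defining markers matched the labels: Cd79a stood at 3210 counts per 1000000 counts (CPM) in #i5, Siglech at 4157 CPM in #i7c and Cx3cr1 at 1181 CPM in #i2c. The macrophage gene Csf1r was at 3066 CPM (#i4) to 5445 CPM (#i6) in the Kupffer cell clusters, but also at 2510 CPM in #i2. The pan-leukocyte gene Ptprc was at 488 CPM in the Kupffer cell clusters and at 2.58, 1.32 and 1.05 CPM in the endothelial, mesenchymal and epithelial classes. Cells held 50042 to 1143895 counts each (median 233696).

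Kupffer cells seed the liver before birth and renew themselves there. They strip bacteria, complement-coated particles, dying cells and haemoglobin from portal blood, and many of their marker genes encode the receptors for this work. Their identity is held by a circuit in which signals from neighbouring endothelial, stellate and parenchymal cells act on the liver X receptor LXR-alpha, the product of Nr1h3, while Id3 answers BMP and TGF-beta signals and Spic, an ETS factor, is induced by haem in iron-recycling macrophages.

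All 10 genes have a model in the GENCODE annotation of GRCm38. Clec4f lies at chr6:83644542-83656187 (minus strand), Vsig4 at chrX:96247203-96293438 (minus), Timd4 at chr11:46810800-46844332 (plus), Cd5l at chr3:87357881-87371073 (plus) and Folr2 at chr7:101839988-101857194 (minus). Cd163 lies at chr6:124304656-124330527 (plus), Adgre1 at chr17:57358691-57483527 (plus), Nr1h3 at chr2:91184061-91202834 (minus), Spic at chr10:88674772-88685015 (minus) and Id3 at chr4:136143497-136145755 (plus). Folr2 overlaps the opposite-strand models Gm10602 and Gm45319, and Nr1h3 overlaps Gm13783 on its own strand and Gm23390 on the other. Smart-seq2 libraries do not mark strand, so reads in these overlaps cannot be told apart by gene.

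The promoters of the genes differ in base composition, and 4 are shown, from Clec4f, whose level outside the immune class was a small share of that in Kupffer cells, to Id3, which every class expressed. Each is the 250 bases upstream of the RefSeq start (GRCm38.p6), written 5′ to 3′ on the gene's strand, with CG dinucleotides in capitals; the windows are chr6:83656117-83656366, chrX:96293439-96293688, chr2:91195117-91195366 and chr4:136143572-136143821.
Clec4f: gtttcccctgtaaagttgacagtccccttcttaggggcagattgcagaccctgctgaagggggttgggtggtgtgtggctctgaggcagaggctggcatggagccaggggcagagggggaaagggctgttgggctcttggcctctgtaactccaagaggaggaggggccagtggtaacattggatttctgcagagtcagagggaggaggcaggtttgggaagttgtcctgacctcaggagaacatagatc
Vsig4: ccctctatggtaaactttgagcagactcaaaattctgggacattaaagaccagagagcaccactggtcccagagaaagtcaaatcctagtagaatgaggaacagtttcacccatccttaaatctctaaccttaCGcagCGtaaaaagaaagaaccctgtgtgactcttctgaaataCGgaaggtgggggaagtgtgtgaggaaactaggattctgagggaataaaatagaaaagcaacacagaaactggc
Nr1h3: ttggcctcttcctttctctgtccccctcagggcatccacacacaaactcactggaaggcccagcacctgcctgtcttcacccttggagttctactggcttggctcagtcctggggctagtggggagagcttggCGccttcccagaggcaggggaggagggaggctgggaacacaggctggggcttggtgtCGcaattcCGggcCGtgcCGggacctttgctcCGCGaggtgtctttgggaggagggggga
Id3: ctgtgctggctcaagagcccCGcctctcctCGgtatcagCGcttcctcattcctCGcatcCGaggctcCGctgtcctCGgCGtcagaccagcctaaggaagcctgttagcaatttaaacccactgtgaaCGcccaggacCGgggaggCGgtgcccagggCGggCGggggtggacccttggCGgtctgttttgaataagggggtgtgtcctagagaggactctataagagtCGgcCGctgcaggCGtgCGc
Clec4f has 0 CG dinucleotides in this window, Vsig4 3, Nr1h3 7 and Id3 18, against a median of 6 over 32851 windows of the same length. Of all windows, 7.87% hold 0, 37.8% hold 3 or fewer, 57.0% hold 7 or fewer and 80.3% hold 18 or fewer. A RefSeq promoter was found for 9 of the 10 genes (11 windows). Cd5l and Cd163 also have 0 CG dinucleotides, Spic 1, Timd4 4, the windows of Folr2 2 and 3, and a further window of Nr1h3 8. The letters GAGGAA, a core bound by ETS factors such as PU.1 and SpiC, occur on either strand in the windows of Vsig4, Cd5l and Id3, and in 23.3% of all windows. TATAAA occurs in none of the 11 windows and in 12.4% of all.

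In the pools, 9 of the 10 genes were called higher in immune cells than in the mean of the other classes and the tenth, Id3, was not. Levels in this comparison are CPM of counts summed over the cells of a class and pool. The sums were compared with edgeR's quasi-likelihood test, as immune minus the mean of the other 3 classes, with p-values adjusted over all 24046 genes tested and a gene called at an adjusted p under 0.05 and at least a 2-fold change. Higher calls were made for 9 of the 10 genes, where 7.92% of all genes tested were called higher. The median log2 fold change was 7.32 over the 10 genes and 0.09 over all genes tested. Because no label names the mice behind a pool, these p-values measure only the spread between 2 pools per class, which may be technical. With each pool left out in turn the same 9 genes were called, and the median over the 10 genes lay between 6.54 (without the female immune pool) and 7.67 (without the female epithelial pool). It was 6.45 with sums per plate and 5.83 on plates with at least 50 immune cells. The genes were chosen as Kupffer cell genes and the authors' classes were drawn on the same cells, so the calls describe how far the classes stood apart.

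Clec4f encodes a C-type lectin that binds galactose-bearing glycans and is restricted to Kupffer cells in the mouse. Its level was 2510 and 5233 CPM in the male and female immune pools, 21.3 and 62.2 in endothelial cells, 5.23 and 21.1 in mesenchymal cells, and 12.01 and 173 in epithelial cells. The lower immune pool thus stood above the highest other pool, female epithelial cells, by more than an order of magnitude (log2 fold change 6.86 ± 0.87 SE, edgeR adjusted p = 0.0019). Cd5l, a secreted scavenger-receptor protein that keeps macrophages from apoptosis, was at 2695 and 5121 CPM in immune cells. In the same order of classes it was at 25.6 and 70.9, 3.22 and 17.96, and 17.03 and 178 CPM elsewhere. It followed Clec4f closely in every pool (6.88 ± 0.84, edgeR adjusted p = 0.0017).

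Vsig4 encodes the complement receptor CRIg, which takes up particles coated with C3 fragments. It measured 1429 and 2273 CPM in immune cells, 9.78 and 17.2 in endothelial, 1.70 and 10.9 in mesenchymal and 7.04 and 37.2 in epithelial cells (7.38 ± 0.72, edgeR adjusted p = 0.00069). Folr2, the folate receptor beta, measured 984 and 1463 CPM in immune cells, 10.1 and 14.6 in endothelial, 1.10 and 6.32 in mesenchymal and 7.39 and 22.0 in epithelial cells (7.27 ± 0.61, edgeR adjusted p = 0.00037). For both genes the female pool was the higher of each class.

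Timd4 encodes a receptor for phosphatidylserine on dying cells. It reached 333 and 681 CPM in immune cells, 1.46 and 2.49 in endothelial, 0.696 and 0.0966 in mesenchymal and 0.282 and 3.75 in epithelial cells (8.93 ± 0.96, edgeR adjusted p = 0.00097). Cd163, the scavenger receptor for haemoglobin bound to haptoglobin, was at 269 and 930 CPM in immune cells, 1.53 and 7.54 in endothelial, 1.56 and 2.05 in mesenchymal and 8.94 and 5.31 in epithelial cells (7.37 ± 0.66, edgeR adjusted p = 0.0005), and without the female immune pool its fold change was 6.09. Its immune pools differed from each other more than those of Clec4f did. Adgre1, the adhesion receptor recognised by the F4/80 antibody, was at 842 and 1483 CPM in immune cells, 4.28 and 8.70 in endothelial, 0.531 and 1.12 in mesenchymal and 6.76 and 16.7 in epithelial cells (8.32 ± 0.49, edgeR adjusted p = 0.00016).

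Among the regulators, Nr1h3 was the least exclusive of the called genes. It measured 427 and 1157 CPM in immune cells, 14.9 and 25.4 in endothelial, 35.9 and 44.4 in mesenchymal and 96.9 and 24.1 in epithelial cells (4.53 ± 0.55, edgeR adjusted p = 0.0017), and without the female immune pool its fold change was 3.52. Spic was at 98.7 and 141 CPM in immune cells and at 0.330 to 1.56 CPM in the 6 other pools (7.54 ± 0.52, edgeR adjusted p = 0.00021). Id3 was at 567 and 633 CPM in immune cells, 1430 and 1137 in endothelial, 767 and 713 in mesenchymal and 248 and 202 in epithelial cells. The immune pools of Id3 lay between the mesenchymal and the epithelial pools (0.11 ± 0.29, edgeR adjusted p = 0.89), and this difference turned negative without the female immune pool (-0.08).

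**Figure D1:**
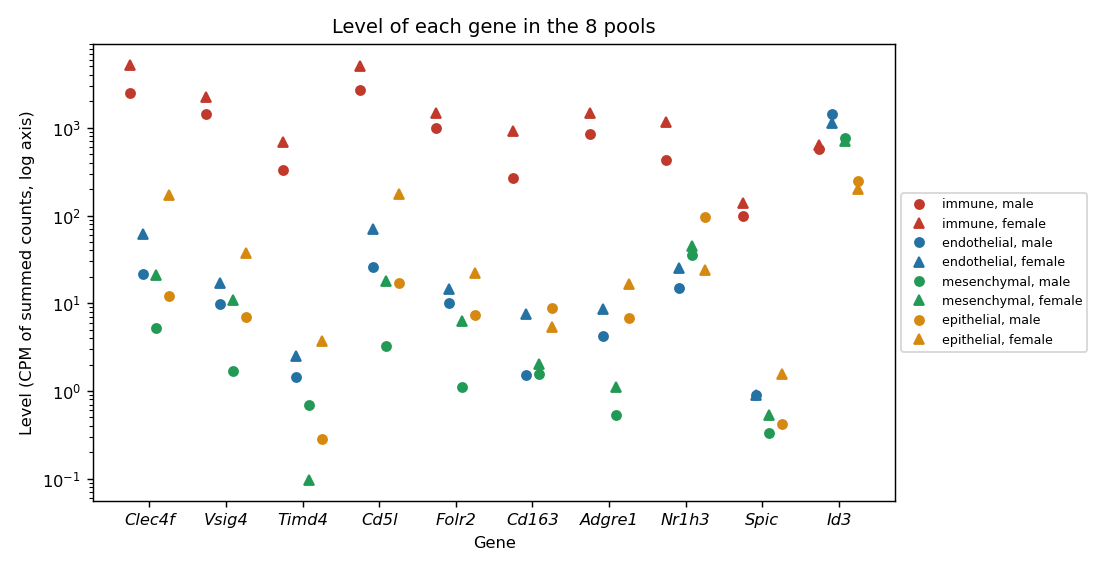
Level of each gene (CPM of summed counts, log axis) in the male and female pools of the 4 classes, 1 point per pool. For Clec4f the immune pools are at 2510 and 5233 CPM and the other pools at 5.23 to 173 CPM. For Id3 the endothelial pools are highest (1430 and 1137 CPM) and the epithelial pools lowest.

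The male immune pool was lower than the female pool for all 10 genes, and the makeup of the pools differed: 134 of 255 male and 394 of 396 female immune cells belonged to the Kupffer cell clusters. Within those clusters the order was mixed. In male and then female Kupffer cells, Clec4f measured 4827 and 5247 CPM, Cd5l 5220 and 5135, Timd4 600 and 683, Adgre1 1272 and 1483, Spic 154 and 141 and Id3 671 and 635. Vsig4 (2735 and 2279 CPM) and Folr2 (1917 and 1467) were the higher in the male pool, and Cd163 (546 and 933) and Nr1h3 (748 and 1160) in the female pool. Sex, plate and cluster cannot be told apart here, because every plate held cells of a single sex and #i7 was nearly all from a single female plate, and no test was made.

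By their share of the counts, Clec4f ranked 4 and Cd5l 5 among all 46517 genes in the 528 cells of the Kupffer cell clusters, at 5159 and 5153 CPM. Vsig4 ranked 27 (2374 CPM), Folr2 52 (1561 CPM), Adgre1 57 (1439 CPM), Nr1h3 93 (1074 CPM), Cd163 123 (852 CPM), Timd4 181 (666 CPM), Id3 194 (642 CPM) and Spic 1408 (144 CPM). The 7 surface and secreted genes together made up 17205 CPM. Full-length reads scale with transcript length, so genes are compared per kilobase of exons: Cd5l was then at 2531 CPM per kb, Clec4f at 2088, Vsig4 at 1600 and Folr2 at 1010. Adgre1 (444), Nr1h3 (427), Id3 (359) and Timd4 (306) followed, then Cd163 (156) and Spic (37.4 CPM per kb). The order per length thus differed from that of CPM, with Cd163 below Timd4 and Id3.

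Most of these genes were found in nearly every Kupffer cell. At least 1 count was present in 98.5% of the 528 cells for Clec4f (exact 95% binomial interval 97.0 to 99.3, which covers counting error only), in 98.5% for Cd5l, 98.7% for Vsig4, 98.1% for Folr2, 96.8% for Adgre1, 93.2% for Timd4 (90.7 to 95.2), 91.9% for Nr1h3 and 89.2% for Cd163 (86.2 to 91.7). Spic was found in 64.6% (60.3 to 68.7) and Id3 in 100% of them. With each cell thinned to 50000 counts, which left out 13 of all 3491 cells, the shares were 98.3% for Clec4f, 88.4% for Timd4, 82.3% for Cd163, 88.0% for Nr1h3 and 50.5% for Spic. Detection alone says less than the level does, because counts of Kupffer cell genes also appeared in cells that should lack them. In the B cell cluster #i5 (58 cells, median depth 276183 counts, against 246622 in the Kupffer cell clusters) Clec4f was detected in 86.2% of cells at 59.4 CPM, Cd5l in 87.9% at 68.0 CPM, Vsig4 in 84.5% at 26.0 CPM and Folr2 in 79.3% at 15.8 CPM. In the 2840 cells outside the immune class, Clec4f was detected in 19.4% (17.996 to 20.9) at 22.8 CPM and Timd4 in 6.30% at 1.04 CPM. On the 5 plates that held at least 50 immune cells, Clec4f was detected in 94.9% of the cells outside the immune class, at 130 CPM, so these shares depended on the plate. The source of these counts was not tested.

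Across the multilevel clusters, the 5 Kupffer cell clusters shared the same set of genes at different levels. Clec4f was at 5248 CPM in #i1, 5946 in #i3, 3928 in #i4, 7435 in #i6 and 4628 in #i7, against 917 in #i2 and 59.4 in #i5. Cd5l followed the same order of extremes, with 5711, 5061, 4120, 7246 and 4679 CPM in the Kupffer cell clusters and 929 and 68.0 in #i2 and #i5. Cluster #i6 was highest and #i4 lowest of the 5 for both genes, but 74.4% of #i6 came from plate B and the order depended on the plate. On plate A, Clec4f was at 6179 CPM in #i3, 6060 in #i6, 5168 in #i4 and 4620 in #i7. Cd5l was at 5444 CPM in #i4 and 5420 in #i6 there. Vsig4 was highest in #i1 (3069 CPM) and lay at 1874, 1609, 2403 and 2365 CPM in #i3, #i4, #i6 and #i7, with 542 in #i2 and 26.0 in #i5. Folr2 had the same order of clusters, with 2123 CPM in #i1, 1260, 1102, 1808 and 1455 in the rest, and 328 and 15.8 in #i2 and #i5.

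Timd4 and Cd163 were spread most widely in #i1. Timd4 was at 642, 539, 384, 658 and 750 CPM in #i1, #i3, #i4, #i6 and #i7, and at 180 and 3.28 CPM in #i2 and #i5. Cd163 was at 600, 844, 407, 926 and 994 CPM, and at 59.8 and 3.08 CPM in #i2 and #i5. The median cell of #i1 held 20.4 CPM of Cd163 and 234 CPM of Timd4, whereas the median cell of #i7 held 839 and 769 CPM. Cd163 was detected in 70.1% of #i1 cells and 97.8% of #i6 cells although #i1 was the deeper of the pair (median 217512 against 145032 counts), and in 53.4% and 94.4% after thinning. Adgre1 was lowest in #i3 (612 CPM, median cell 205) among the Kupffer cell clusters, with 1366 in #i1, 765 in #i4, 1723 in #i6 and 1705 in #i7 (median cell 1652). It was at 803 CPM in #i2 (median cell 21.7), above #i3 and #i4 by summed counts, and at 20.8 CPM in #i5.

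Nr1h3 was likewise lower in #i1 than in #i6 and #i7, with 836 CPM in #i1, 960 in #i3, 634 in #i4, 1206 in #i6 and 1222 in #i7, and was at 260 CPM in #i2 and 4.35 in #i5. It was detected in 76.1% of #i1 cells and in 100% of the cells of #i6 and #i7. Spic was highest in #i3 (203 CPM) and #i1 (166), with 42.6 in #i4, 88.3 in #i6 and 150 in #i7, yet only 35.0% of #i1 cells held a count of it, so that its level in #i1 rested on a minority of cells. In #i2 Spic was at 86.1 CPM, above #i4, although the median cell of both clusters held none. Id3 was at 584, 869, 649, 583 and 620 CPM in #i1, #i3, #i4, #i6 and #i7, at 662 in #i2 and at 199 in #i5.

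By level, 7 of the 10 genes were higher in each of the 5 Kupffer cell clusters than in both #i2 and #i5, the exceptions being Adgre1, Spic and Id3, where 9.96% of the 12987 genes of at least 10 CPM in any of the 7 clusters had that order. By share of cells with a count the number was also 7 but the genes differed, with Clec4f, Cd5l and Spic as the exceptions (7.36% of those genes), and it was 9 after thinning, with Id3 as the exception (9.39%). The clusters were drawn on the same genes, so nothing is read from these shares. The male pool alone held nearly all cells of #i2 and all of #i5. Only 3 Kupffer cell clusters (#i1, #i3 and #i4) had at least 5 male cells, so its counts cover fewer clusters. Over those 3 the number was 6 by level, where 4.77% of 12550 genes had that order. By share of cells with a count it was 1 (Id3), where 2.24% had it. Summed per cluster and pool with at least 5 cells, Kupffer cell clusters minus the others gave log2 fold changes between 4.24 and 4.68 for Timd4, Clec4f, Cd5l, Folr2 and Vsig4, with Adgre1 at 3.32 and Id3 at 1.01. For Cd163 (5.72), Nr1h3 (4.80) and Spic (3.44) the value depended on the female pool: without it they were at 4.199, 3.58 and 1.34. No error is given, because clusters of the same 2 pools are not replicates. The sums of #i2 and #i5 came from the male pool alone and those of #i6 and #i7 from the female pool alone, so sex and cluster cannot be told apart in these values.

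The spread between cells separated the genes as well. Over the 528 cells, the coefficient of variation of CPM was 0.47 for Clec4f, 0.48 for Cd5l, 0.53 for Vsig4 and 0.59 for Folr2. It was 0.84 for Adgre1, 0.88 for Nr1h3, 0.98 for Id3, 0.99 for Timd4, 1.11 for Cd163 and 2.22 for Spic. In #i7, whose cells came almost all (98.2%) from a single plate and were the deepest (median 454719 counts), it fell to 0.27 for Clec4f and Cd5l, 0.28 for Folr2, 0.30 for Vsig4, 0.49 for Timd4 and 0.78 for Cd163. In #i1, with 108 male and 9 female cells and 37.6% from its largest plate, it was 0.44 for Clec4f but 1.38 for Timd4, 1.44 for Id3 and 1.61 for Cd163. Depth and plate moved with this difference, and their part in it was not tested.

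**Figure D2:**
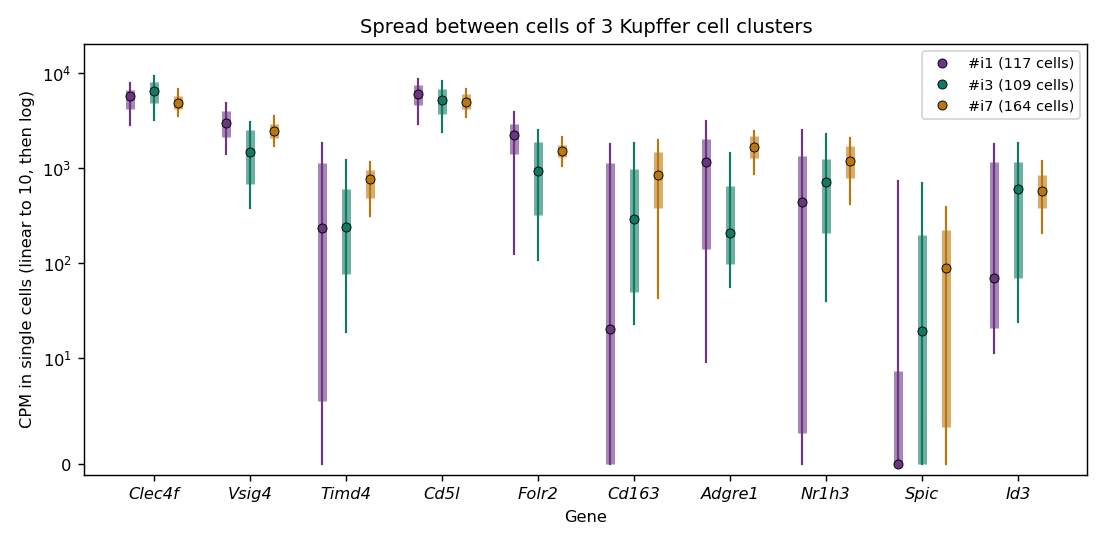
Spread between single cells of clusters #i1, #i3 and #i7 (CPM, linear to 10 and then log), with the median as a point, the middle 50% of cells as a thick bar and the 10th to 90th percentile as a thin line. Clec4f, Cd5l and Vsig4 are narrow in each cluster, whereas for Cd163 the median is 20.4 CPM in #i1 and 839 CPM in #i7.

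Counted per cell, the 7 surface and secreted genes mostly occurred together. All 7 exceeded 100 CPM in 289 of the 528 cells (54.7%), and 3 or more did so in 514 (97.3%). The share with all 7 was 84.1% in #i7, 66.7% in #i6, 45.8% in #i4, 40.4% in #i3 and 21.4% in #i1. At least 3 exceeded 100 CPM in 5 of 41 cells of #i2c, in 2 of 58 of #i5 and in 0 of 16 of #i7c. On a single plate (plate A, female), 92 cells of #i3 and 161 of #i7 could be set side by side, although their depth differed (median 136992 and 451028 counts). Adgre1 was at 599 CPM in #i3 and 1690 CPM in #i7 (608 and 1649 CPM after thinning), Timd4 at 561 and 745, Clec4f at 6179 and 4620, Spic at 207 and 148 and Id3 at 818 and 624. The median cell gave another order for Spic (22.7 CPM in #i3 and 85.5 in #i7) and nearly the same value for Id3 (580 and 583 CPM), while for Adgre1 it was 194 and 1636 and for Clec4f 6579 and 4789 CPM. Expression of the hepatocyte gene Alb moved with this split over all plates, at 1000 CPM in #i3 and 199 CPM in #i7, and its part in the differences was not tested.

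The community setting resolved the mixed cluster #i2. The monocyte-derived macrophages of #i2c (41 cells) held 237 CPM of Clec4f, 216 of Cd5l, 108 of Vsig4, 83.2 of Folr2, 23.8 of Timd4 and 2.26 of Cd163, but 893 CPM of Adgre1, 174 of Nr1h3, 35.7 of Spic and 649 of Id3. The median cell held 377 CPM of Adgre1, 98.1 of Id3, 3.43 of Nr1h3 and 0 of Spic. A count of Clec4f was present in 85.4% of these cells, yet the median cell held 32.7 CPM, below the median of 50.9 CPM in B cells of #i5. Plates differed here: 28 of the 41 cells came from plate D and 35 of the 58 B cells from plate C. The median endothelial cell held 15.3 CPM on plate D and 71.5 CPM on plate C, so plate and cell type cannot be told apart in this order. The dendritic cells of #i7c (16 cells) held 19.04 CPM of Clec4f, 2.48 of Adgre1, 2.17 of Nr1h3 and 197 of Id3. Timd4 was seen in 0 of 16 cells of #i7c, which allows a share of up to 18.75%.

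Cluster #i4c (18 cells, 17 of them male and 16 from a single plate), which the multilevel setting had left in part within #i2, carried Kupffer cell levels of most genes, with 3916 CPM of Clec4f, 4075 of Cd5l, 2443 of Vsig4, 730 of Timd4, 1454 of Adgre1 and 765 of Nr1h3. By summed counts it had the highest Id3 (1215 CPM) and the highest Spic (289 CPM) of the 11 community clusters, and 307 CPM of Cd163. Plate and cluster cannot be told apart in these ranks. Among the 5 clusters that are Kupffer cells in both settings, #i8c had the highest Clec4f (7940 CPM) and Cd5l (7812 CPM) of all 11 but the lowest Spic of the 5 (82.4 CPM), and #i3c and #i11c the lowest Adgre1 (622 and 794 CPM). A single plate supplied 79.7% of the cells of #i8c, and 80.5% and 96.6% of those of #i3c and #i11c. The part of plate in this order was not tested. When the 9 cells of #i2 that belong to #i4c were counted with the Kupffer cells, the median log2 fold change of the 10 genes over the remaining immune clusters went from 4.44 to 5.70.

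Clusters #i5c and #i9c, which together hold all 48 cells of #i4, carried other signals. The cell-cycle gene Mki67 stood at 349 CPM in #i5c and 213 CPM in #i9c, and #i9c also held 985 CPM of the endothelial Kdr, 191 of the mesenchymal Pdgfrb, 1008 of Alb and 317 of Cd79a. Of the 528 cells in the Kupffer cell clusters, 11 held under 50 CPM of Clec4f, 9 of them in #i9c (of 26 cells) and 2 in #i5c (of 24). Clec4f in #i9c was at 2960 CPM with all its cells and at 5206 CPM over the 17 others, where Cd5l was at 5522, Vsig4 at 1666, Adgre1 at 1023, Nr1h3 at 371 and Spic at 56.1 CPM. In #i5c Clec4f was at 4655 CPM with all cells and at 5164 over the 22 others. The cells were left out by their own Clec4f level, so these values are a description.

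**Figure D3:**
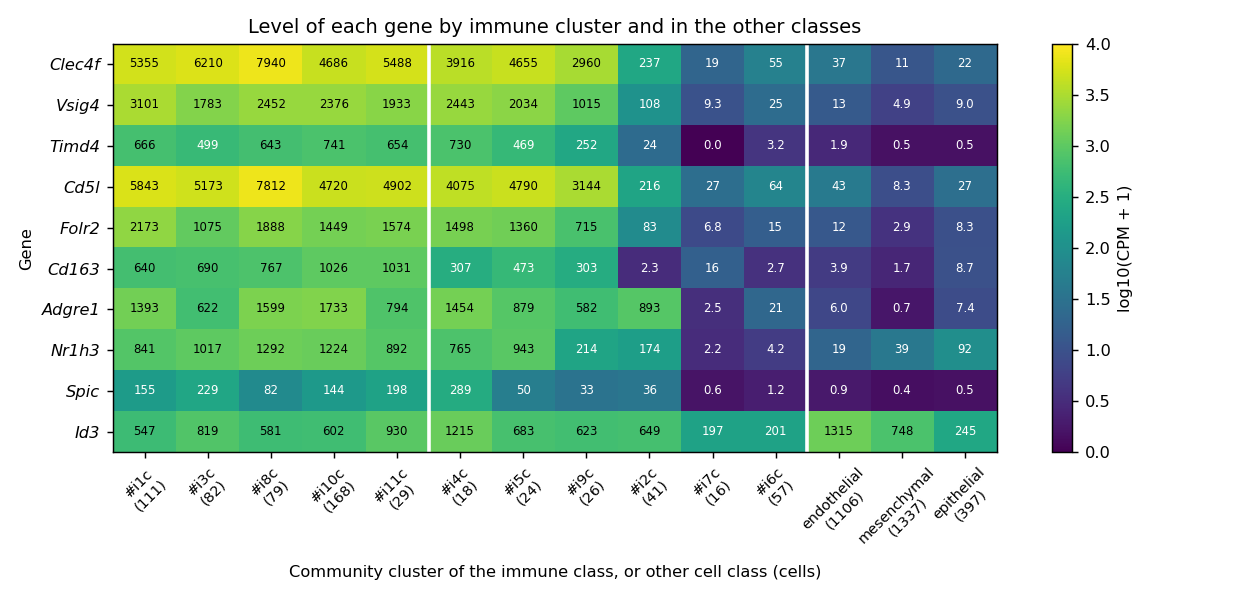
Level of each gene as log10(CPM + 1) in the 11 community clusters of the immune class and in the other 3 classes, with the number of cells in each. The Kupffer cell clusters, #i5c, #i9c and #i4c hold at least 2960 CPM of Clec4f, #i2c keeps Adgre1 (893 CPM) and Id3 (649 CPM) with 2.26 CPM of Cd163, and Id3 is lowest in #i6c, #i7c and the epithelial class.

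Genes whose levels most resembled each of these were sought over the 30 multilevel clusters of all classes. The measure was the Pearson correlation of log2(CPM + 1) among 16593 genes. Clusters share libraries, plates and counts whose source was not tested, so r is a description. Clec4f and Vsig4 were each other's nearest gene (r = 0.99), followed for Clec4f by Cd5l and Folr2 (both 0.97) and for Vsig4 by Folr2 (0.98) and Cfp (0.97). Cd5l was nearest to C1qa (0.98), Folr2 and Clec4f, and Folr2 to C1qa, Cd300c2 and C1qc (all 0.98). Timd4 was nearest to Clec7a, Clec4n and Igsf6 (0.98 to 0.99), Spic to Clec7a, Pilrb1 and Adamdec1 (all 0.99), Adgre1 to Cd86 (0.99), Fcgr1 and Pilrb2 (both 0.98) and Cd163 to Folr2, Pilrb2 and Adgre1 (all 0.96). Nr1h3 stood apart, with Creg1 (0.88), Paox (0.84) and Tgm1 (0.83) nearest and r between 0.60 and 0.74 with the 7 surface and secreted genes. Id3 resembled Phactr2 (0.94), Strn3 (0.92) and Tmx3 (0.90), and its r with the other 9 genes lay between -0.30 and 0.15.

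Outside the immune class, the levels of the surface and secreted genes were higher on the plates with the most immune cells. Over the 5 plates with at least 50 immune cells, the 356 other cells held 130 CPM of Clec4f and 94.9% of them had a count of it, whereas on 14 plates with under 5 immune cells, 2342 other cells held 6.91 CPM (7.52% detected). Without the 3 cells that held the most Clec4f on each kind of plate, the levels were 94.6 and 4.03 CPM. Cd5l was at 137 and 7.56 CPM over the same kinds of plate, Vsig4 at 41.0 and 3.53 and Adgre1 at 16.5 and 1.77 CPM. Summed over the other 3 classes, all 7 genes were the higher on plates with at least 50 immune cells. This held for 7 of the 7 in endothelial cells and, with Cd163 as the exception, for 6 of the 7 in epithelial cells. The share of all genes with that direction was not counted. Clec4f was at 171 and 4.598 CPM in endothelial and 128 and 1.54 CPM in epithelial cells. In mesenchymal cells it was at 23.2 and 10.03 CPM, but the 59 cells behind the higher value came from 1 plate. A female plate with 4 immune cells held 339 mesenchymal cells at 21.1 CPM. No relation to the kind of plate is therefore read for this class. On 3 plates with 5 to 49 immune cells, 142 other cells held 40.6 CPM of Clec4f, but 3 cells supplied 922 of its 988 counts, and without them the level was 2.77 CPM, so nothing is read from this middle kind of plate. Nr1h3 was at 41.2 and 38.9 CPM on the plates with at least 50 and under 5 immune cells and Id3 at 1115 and 876 CPM. These sums hide differences between classes. In the same order, Nr1h3 was at 43.9 and 13.5 CPM in endothelial, 30.8 and 40.04 in mesenchymal and 45.8 and 104 in epithelial cells. Id3 was at 1393 and 1312 CPM in endothelial, 1065 and 728 in mesenchymal and 231 and 245 in epithelial cells. Whether carry-over between wells, joint capture of cells or uptake of RNA gave these counts was not tested.

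**Figure D4:**
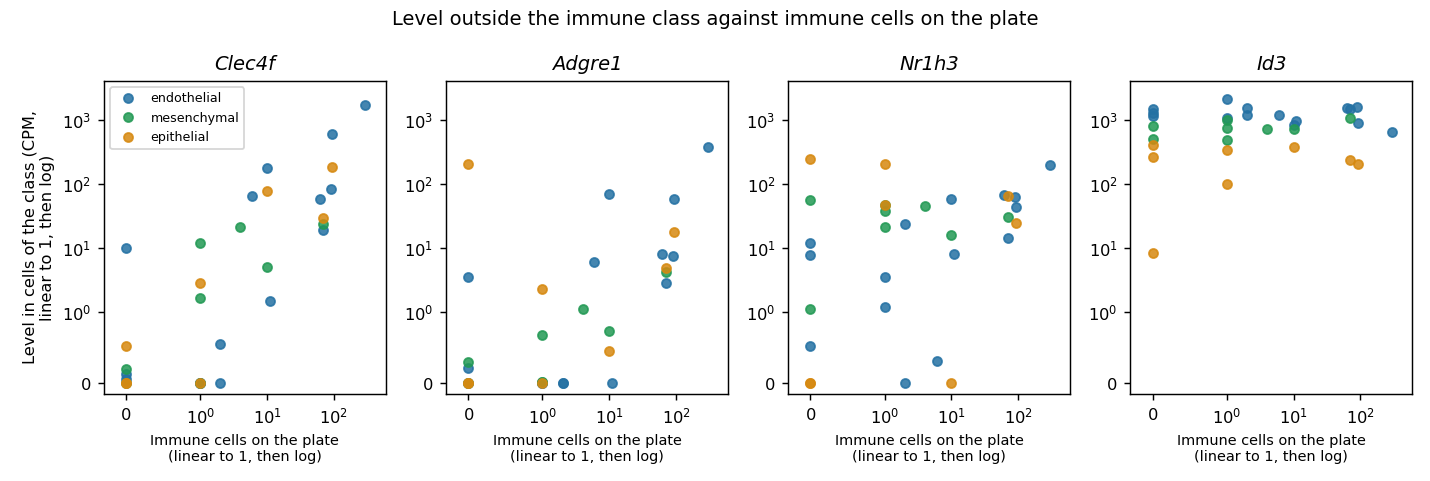
Level in cells outside the immune class (CPM) against the number of immune cells on the same plate, 1 point per class and plate with at least 5 cells, for Clec4f, Adgre1, Nr1h3 and Id3, both axes linear to 1 and then log. Clec4f is highest on the plates with the most immune cells (130 CPM over plates with at least 50 immune cells, 6.91 CPM over those with under 5). Summed over the classes, Nr1h3 is at 41.2 and 38.9 CPM and Id3 at 1115 and 876 CPM over the same plates. By class, Nr1h3 is at 43.9 and 13.5 CPM in endothelial, 30.8 and 40.04 in mesenchymal and 45.8 and 104 in epithelial cells.

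Plates that held Kupffer cells, B cells and endothelial cells together allowed a comparison at shared handling. On plate C (male, 47 Kupffer cells), the 7 surface and secreted genes stood at 0.444 to 1.92% of the Kupffer cell level in 35 B cells of #i5 (median 0.900%), where the upper end was Adgre1, of which 1 cell supplied 70.2% of the counts (0.596% without it), and at 0.530 to 1.62% in 41 endothelial cells (median 0.912%). On plate E (male, 40 Kupffer cells) the ranges were 0.485 to 1.02% in 15 B cells and 0.498 to 1.18% in 39 endothelial cells. For these 7 genes, the shares in endothelial cells and in B cells thus overlapped on both plates. By summed counts Nr1h3 lay above this range in endothelial cells, but few cells carried it. It was at 0.512% of the Kupffer cell level in B cells (4.47 CPM) and 7.22% in endothelial cells (63.0 CPM) on plate C, and at 0.605% (4.88 CPM) and 8.14% (65.6 CPM) on plate E. On plate C, 719 of the 804 endothelial counts came from 1 cell, without which the level was 7.01 CPM (0.804%). On plate E, 226 of 546 came from 1 cell, without which it was 40.5 CPM (5.03%). The median endothelial cell held 5.58 CPM on plate C and 2.70 CPM on plate E, and the median B cell 3.51 and 4.45 CPM. Id3 was at 34.2% in B cells and 344% in endothelial cells on plate C, and at 47.5% and 198% on plate E.

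**Figure D5:**
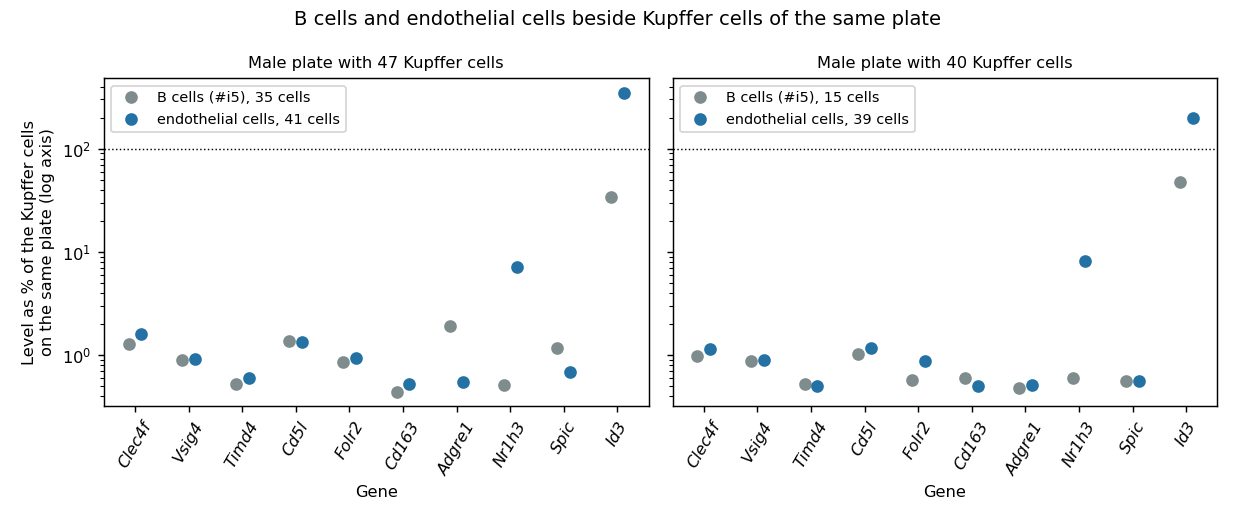
Level of each gene in B cells (#i5) and endothelial cells as a percentage of the Kupffer cell level on the same plate (log axis), for plates C and E; the dotted line marks 100%. The 7 surface and secreted genes lie between 0.444% and 1.92% in both cell types on both plates, the upper end being Adgre1 in B cells of plate C, at 0.596% without 1 cell. Id3 is at 344% and 198% in endothelial cells, and Nr1h3 is at 7.22% and 8.14% there, of which 1 cell supplied 89.4% of the counts on plate C and 41.4% on plate E.

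The other plates with Kupffer cells gave other levels in the remaining cells. On plate D (male, 33 Kupffer cells) the 7 surface and secreted genes stood at 0.184 to 0.435% of the Kupffer cell level in endothelial, 0.161 to 0.540% in mesenchymal and 0.331 to 1.37% in epithelial cells (the upper end being Cd5l, at 0.758% without 1 cell), while Nr1h3 was at 2.21%, 4.86% and 10.1% and Id3 at 162%, 116% and 25.5%. Single cells supplied 79.5%, 35.6% and 41.5% of these Nr1h3 counts, and the median cell of the 3 classes held 0, 1.64 and 4.04 CPM. The 28 cells of #i2c on this plate held Adgre1 at 101% of the Kupffer cell level, Nr1h3 at 23.98% and Spic at 20.1%, but Clec4f at 5.08% and Cd163 at 0.53%. Few cells carried several of these values: 1 cell supplied 89.0% of the Clec4f counts, 59.4% of those of Spic and 37.4% of those of Nr1h3, and the median cell held 27.9 CPM of Clec4f, 0 of Spic and 3.89 of Nr1h3, beside 556 CPM of Adgre1. On plate B (female, 91 Kupffer cells) the 7 genes reached 3.20 to 7.66% in 54 endothelial cells and 0.655 to 2.29% in 36 epithelial cells, which were 36 of the 39 female epithelial cells. Nr1h3, at 3.40% and 1.93%, lay inside these ranges on plate B. On plate A (female, 297 Kupffer cells), 5 endothelial cells ranged from 3.88 to 45.3% over the 7 genes and held Nr1h3 at 16.9%, but single cells supplied 53.1 to 95.2% of the counts of each of these genes, and without the top cell the range was 1.68 to 28.5% and Nr1h3 was at 4.89%.

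A few cells carried much of what was counted outside the immune class. At least 3 of the 7 surface and secreted genes exceeded 100 CPM in 53 of 2840 cells (1.87%), and 27 of the 53 were among the 52 cells of endothelial cluster #e8 on plate B. Over its 155 cells, #e8 had the most Clec4f (327 CPM) and Cd5l (386 CPM) of all clusters outside the immune class, beside 15.2 CPM of Ptprc, 204 of C1qa, 232 of Lyz2 and 2718 of the endothelial Kdr. A single cell of epithelial cluster #p1, on a plate without immune cells, supplied 773 of the 857 Cd163 counts of the epithelial class (90.2%) and 70.1% of its Adgre1 counts, and held 3634 CPM of Cd5l and 1370 of Folr2 but no count of Clec4f, Vsig4 or Timd4. In mesenchymal cells, single cells supplied 68.7% of Timd4 and 49.7% of Vsig4 counts. For Nr1h3 the largest contribution of any cell was 13.3% in endothelial (719 of 5387 counts), 3.83% in mesenchymal and 4.504% in epithelial cells, and for Id3 it was 0.38 to 2.55% over the 3 classes.

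Nr1h3 outside the immune class was unevenly spread over clusters. It was highest in epithelial clusters #p5 (271 CPM), #p1 (178), #p3 and #p4 (both 150), then in mesenchymal #m7 (109) and endothelial #e4 (89.7 CPM) and #e1 (49.7), and lowest in endothelial #e3 (0.60 CPM). On the 14 plates with under 5 immune cells it was at 104 CPM in epithelial cells, 40.04 in mesenchymal and 13.5 in endothelial cells. On 1 of these plates 163 epithelial cells beside a single immune cell held 206 CPM, and on another, without immune cells, 320 mesenchymal cells held 55.4 CPM. Id3 ranged from 1622 CPM in #e1 to 690 in #e4 among endothelial clusters, from 1132 in #m3 to 318 in #m8 among mesenchymal clusters, and from 322 in #p2 to 71.9 in #p4 among epithelial clusters.

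Tests between the classes other than immune called few of these genes. Endothelial minus mesenchymal called 1 of the 10 genes, where 5.71% of all genes tested were called in either direction: Adgre1 was higher by 2.92 ± 0.63 (log2, edgeR adjusted p = 0.035). Endothelial minus epithelial called 1, against 9.53% of all genes: Id3 was higher by 2.49 ± 0.38 (edgeR adjusted p = 0.0076). Mesenchymal minus epithelial called 2, against 6.90% of all genes, with Id3 higher by 1.80 ± 0.37 (edgeR adjusted p = 0.026) and Adgre1 lower, at -3.72 ± 0.66 (edgeR adjusted p = 0.016). With the sex of the pool as a replicate block Cd5l was called lower too (-2.89 ± 0.57, edgeR adjusted p = 0.032, against 0.16 without the block). On plates with under 5 immune cells none of the 10 genes was called in these 3 comparisons, in a fit of 7 sums that called 31, 1 and 0 of all genes. With pools left out in turn, the call of Id3 in endothelial minus epithelial was kept throughout. Adgre1 in endothelial minus mesenchymal was no longer called without the male (3.37) or female endothelial pool (2.23) or the male (2.49) or female mesenchymal pool (3.43). In mesenchymal minus epithelial, Adgre1 was not called without the female epithelial (-3.06) or the male mesenchymal pool (-3.33), and Id3 was not called when any of the 4 pools compared was left out (1.58 to 2.07). The calls of Adgre1 rested on levels of at most 16.7 CPM, and 70.1% of its epithelial counts came from 1 cell. Nr1h3 was not called in any of the 3 (-1.07 ± 0.75 in endothelial minus mesenchymal, -1.64 ± 0.76 in endothelial minus epithelial, -0.57 ± 0.74 in mesenchymal minus epithelial), and its male and female epithelial pools lay apart (96.9 and 24.1 CPM).

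Genes related to these 10 by pathway, family or cell type were read from lists, by the same immune comparison, in which 7.92% of all genes tested were called higher and 5.25% lower. Of 20 other Kupffer cell and macrophage genes, 19 were called higher and 0 lower (median log2 fold change 5.71, against 0.09 for all genes), among them the complement gene C1qc (7.01 ± 0.50) and the growth factor receptor gene Csf1r (6.20 ± 0.36). Slco2b1 was not called (-1.90 ± 1.53). A higher call is against the mean log level of 3 classes, so it does not place immune cells above each of them: Mrc1, 1 of the 19, was at 742 CPM in immune and 1188 CPM in endothelial cells. Of 12 macrophage transcription factors, 9 were higher and 1 lower (median 2.74), including Spi1, which encodes PU.1 (7.93 ± 0.80), and Irf8 (4.52 ± 0.40), with Bhlhe40 lower (-1.48 ± 0.39). For 2 of the 9 another class held the higher level: Zeb2 (281 CPM in immune and 299.6 in mesenchymal cells) and Maf (201 CPM in immune and 591 in endothelial cells).

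Around Nr1h3, 6 of 14 partners and targets of the liver X receptors were higher and 0 lower (median 0.83, beside 7.92% and 5.25% of all genes tested). The cholesterol exporter genes Abcg1 (4.15 ± 0.67) and Abca1 (2.50 ± 0.45), the lipase gene Lpl (4.25 ± 0.47), the phospholipid transfer gene Pltp (3.22 ± 0.36), Nceh1 (2.49 ± 0.42) and the partner receptor gene Rxra (2.48 ± 0.53) made up the 6. Nr1h2, which encodes the other liver X receptor, was not called (0.34 ± 0.30, edgeR adjusted p = 0.54). Around Spic and Cd163, 5 of 13 haem and iron genes were higher and 1 lower (median 0.87, beside the same shares). The haem oxygenase gene Hmox1 (4.58 ± 0.32), the iron exporter gene Slc40a1 (4.09 ± 0.29), the haemopexin receptor gene Lrp1 (3.54 ± 0.41) and the biliverdin reductase genes Blvrb (2.51 ± 0.38) and Blvra (2.15 ± 0.36) were higher, and ceruloplasmin (Cp) was lower (-3.74 ± 0.76). Lrp1 was at 1044 CPM in immune and 1074 CPM in mesenchymal cells, against 9.33 and 46.4 CPM in endothelial and epithelial cells.

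Around Id3, 1 of 18 BMP, TGF-beta and Notch genes was higher and 1 lower (median -0.36), namely the receptor genes Acvrl1 (2.04 ± 0.44) and Eng (-2.39 ± 0.46). These counts were near the shares of all genes called, 7.92% higher and 5.25% lower. The other Id genes were not called: Id1 was at -0.08 ± 0.40, Id2 at -0.28 ± 0.32 and Id4 at -1.08 ± 1.02. Among 19 relatives of the 10 genes that were tested, 9 were higher and 1 lower (median 3.33, beside the same shares). These included the lectin genes Clec4e (8.87 ± 1.48), Clec4n (8.44 ± 0.87) and Clec4a2 (8.16 ± 0.57), the F4/80 relative Adgre4 (8.37 ± 0.58) and the ETS gene Spib (7.96 ± 1.37), with Adgrg1 lower (-3.58 ± 0.40). Clec4e and Spib were nearly absent from the Kupffer cell clusters (0.918 and 3.28 CPM), with Clec4e at 239 CPM in #i2c and Spib at 554 and 1617 CPM in #i6c and #i7c. Some genes stand on more than 1 list, among them Hmox1, Slc40a1, Pltp, Rxra and Spi1. The immune class as a whole also held the markers of its other cells: 6 of 6 B cell, 5 of 5 plasmacytoid dendritic cell, 5 of 7 monocyte and 4 of 4 cell cycle markers were higher. Of the markers of the other classes, 2 of 7 endothelial, 1 of 5 mesenchymal and 1 of 6 epithelial markers were called lower, where 5.25% of all genes were, and 0 higher.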

How the data were processed

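Livers were dissociated, cells were sorted into plates and libraries were made with Smart-seq2. The authors deposited raw read counts per gene and cell, without normalization, made from single reads with Bowtie, Bowtie2 and Subread's featureCounts on GRCm38 (mm10), the tools that the submitters' processing notes name without roles or versions; strand was not marked. Counts per cell after the authors' filters ran from 50042 to 1143895. Cell names carry the plate, and classes and clusters are the authors' annotation. The 92 ERCC spike-in rows (1.95% of counts) were left out, which kept 46517 genes; 0 columns were unused. Doublets were handled by the authors' gates and gene limits, and no further caller was run.

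Counts were summed per class and pool and scaled to CPM, or fitted in edgeR 4.0.16 (R 4.3.3) with TMM scaling, filterByExpr, glmQLFit and glmQLFTest and Benjamini-Hochberg adjustment; SE is the absolute log2 fold change over the square root of F. The script was tested on simulated data. Detection is at least 1 count, with exact (Clopper-Pearson) 95% intervals; a count of 0 allows up to 3 counts. Reads without molecular identifiers are not independent molecules. Each cell was thinned with a fixed seed (Python 3.11.15, numpy 2.4.6, pandas 2.3.3, scipy 1.17.1). Alternatives were DESeq2 1.42.0, no filter, thinning, sums per plate, a replicate block, each pool left out, other sets of immune cells, a limit of 20 counts, mean CPM over cells, and, chosen after seeing the data, plates with under 5 or at least 50 immune cells and clusters without cells under 50 CPM of Clec4f.

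The genes named are the 10 members, list genes on which a result turns, and for each member the 3 genes of highest correlation. The members and lists were chosen with earlier results of these data known.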

Additional observations from a re-analysis of the deposited data

Results flagged for a closer look

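For 12 comparisons of these genes the male pools differed in one direction and the female pools in the other; each sex had 1 pool per class and the differences between sexes were not tested. Values are log2 ratios of CPM, male then female. Endothelial against epithelial cells gave 0.827 and -1.479 for Clec4f, 0.475 and -1.109 for Vsig4, 2.372 and -0.593 for Timd4, 0.588 and -1.328 for Cd5l, 0.448 and -0.595 for Folr2 and 1.08 and -0.789 for Spic, so that these 6 genes were the lower in epithelial cells of the male pool and the higher in those of the female pool. Of the 39 female epithelial cells, 36 came from a plate with 93 immune cells. The same comparison went the other way for Cd163 (-2.546 and 0.506), where 90.2% of the epithelial counts came from a single male cell, and for Nr1h3 (-2.704 and 0.079).

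Mesenchymal against epithelial cells gave 1.302 and -5.279 for Timd4, which held 0.0966 CPM in the female mesenchymal pool, and -1.434 and 0.884 for Nr1h3. Endothelial against mesenchymal cells gave -0.025 and 1.882 for Cd163. Immune cells against the mean of the other classes gave -0.192 and 0.211 for Id3. Whether plate, cell makeup or sex moved these ratios cannot be told apart, since every plate held a single sex.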

How the results depend on the processing

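In immune minus the other classes the same 9 genes were called higher under every alternative run, with the median log2 fold change of the 10 genes (7.32) at 5.83 on plates with at least 50 immune cells, 6.45 with sums per plate and 6.54 to 7.67 with pools left out, while the number of all genes called (3167, of which 1904 higher and 1263 lower) was 5669 with DESeq2 (2596 and 3073), 5507 without a filter, 1032 on plates with at least 50 immune cells, 1847 to 3096 with pools left out and, with sums per plate, split into 1668 higher and 1728 lower. Between the other classes the main counts of the 10 genes were 1 (endothelial minus mesenchymal), 1 (endothelial minus epithelial) and 2 (mesenchymal minus epithelial). In that order they were 1, 1 and 3 with DESeq2, 4, 2 and 7 without a filter, 0, 0 and 0 on plates with under 5 immune cells, 3, 1 and 1 with sums per plate, and 0 to 1, 1 and 0 to 2 with pools left out. The counts of all genes, 1372, 2292 and 1660, were 3676, 5477 and 4376 with DESeq2, 3113, 4421 and 3701 without a filter, 31, 1 and 0 on plates with under 5 immune cells, 2253, 4263 and 2569 with sums per plate, and 369 to 1722, 711 to 2645 and 602 to 2048 with pools left out. Pools of the same sex shared some of their plates between classes, and their deviations correlated at 0.0864 to 0.11, over 0.1 in 2 of 6 pairs of classes; whether they came from the same mice is not given in the sources used here. With the sex as a replicate block 9, 1 and 1 of the 10 genes were called, and 3 in mesenchymal minus epithelial. Directions reversed as follows, in log2 fold change. Id3 in immune cells was at -0.0898 on plates with at least 50 immune cells and -0.0826 to 0.1996 with pools left out. Clec4f was at -1.6549 in endothelial minus mesenchymal on plates with under 5 immune cells, at 2.3492 (sums per plate), 1.1011 (plates with under 5) and -2.1005 to 1.6802 (pools left out) in endothelial minus epithelial, and at 2.7561 (plates with under 5) and -3.8698 to 0.0845 (pools left out) in mesenchymal minus epithelial. Adgre1 in endothelial minus epithelial was at 0.5359 with sums per plate, and Nr1h3 in mesenchymal minus epithelial at -1.2803 to 0.9175 with pools left out. The causes were not tested. The median over the 10 genes in Kupffer cell minus other immune clusters (4.441) was 5.701 with the #i2 cells of #i4c moved and 3.937 to 4.515 with pools of Kupffer cells left out, the spread being taken from the full fit; the replicate block moved Cd163 from 5.72 to 4.39, Nr1h3 from 4.80 to 3.85 and Spic from 3.44 to 2.80 there. Genes with a higher detected share in every Kupffer cell cluster than in #i2 and #i5 numbered 7 over both pools. In the male pool alone they numbered 1, over only the 3 Kupffer cell clusters with at least 5 male cells. The female pool alone gave no value, since it held 2 cells of #i2 and 0 of #i5. The male sums of #i2 and #i5 could not be left out. With 2 pools a class, a gene detected in few cells, such as Spic outside the immune class, is limited by counting.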
